A study of Mus musculus with 2 samples.

Results

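Polyamine metabolism was followed through 10 genes: those of the 4 synthesis enzymes (Odc1, Amd1, Srm, Sms), of the 3 enzymes that acetylate or oxidise polyamines (Sat1, Paox, Smox), of 2 antizymes (Oaz1, Oaz2) and of the antizyme inhibitor Azin1. They were taken by symbol from the 35275 gene IDs of the deposited tables, and 10 of 10 were found. RNA was sequenced from 2 livers of C57BL/6 mice aged 10 months, 1 labelled wild type (WT) and 1 labelled LTsc1KO with the genotype TSC1-/-, a knockout of Tsc1 that the series describes as specific to the liver. Tsc1 encodes hamartin, part of the complex that holds back the growth kinase mTORC1, and the series asks what lies behind the liver cancer that arises in this model. What drives the deletion is not stated in the labels or the series' text. The series' text speaks of tumours and both labels say liver, so whether a nodule was taken is not known.

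Polyamines (putrescine, spermidine and spermine) are small, positively charged molecules that bind RNA and DNA and are needed for growth. Ornithine is decarboxylated to putrescine, to which aminopropyl groups from decarboxylated S-adenosylmethionine are added to give spermidine and then spermine. Acetylation followed by oxidation runs the pathway backwards, and antizymes, made when polyamines are plentiful, bind ornithine decarboxylase and send it to the proteasome. In human prostate cancer cells mTORC1 is known to stabilise the AMD1 protein, a step that RNA levels do not show.

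Much of the control of this pathway lies in decoding, so 3 short elements are shown that act on the protein made from the RNA measured here. The first pair is the site at which ribosomes must slip by 1 base to make antizyme, read from GENCODE M21 transcripts (GRCm38, plus strand): Oaz1 at chr10:80828280-80828309 and Oaz2 at chr9:65686257-65686286. Capitals mark the last codon of the first frame and the stop codon behind it.
Oaz1: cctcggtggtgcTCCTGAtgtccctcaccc
Oaz2: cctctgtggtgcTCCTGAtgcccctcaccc
The windows of 30 bases differed at 2 positions, both outside the capitals. The element in Amd1 lies in its 5' untranslated region, at chr10:40302152-40302178 on the minus strand. It is a reading frame of 6 codons and a stop codon, in capitals, which is known to stall ribosomes when polyamines are abundant.
Amd1: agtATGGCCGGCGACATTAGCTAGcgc
The FPKM values below count RNA, and neither slipping nor stalling was measured.

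Values are FPKM, reads scaled by gene length and by the library's total, as deposited by the authors. With 1 library per genotype no replicate check and no p-value can be given, and a difference between the libraries may be one between 2 animals. Each ratio has a 95% interval by the exact Clopper-Pearson method, computed from reads, which describes counting error and nothing else. Tsc1 itself had 4.90 FPKM in the WT-labelled library and 4.79 in the LTsc1KO-labelled library, so it does not check the labels. These values are near equal on the deposited scale only, since the division by 1.64 described below lowers the second alone. Both libraries are therefore named by label. Library totals, inferred from the FPKM and gene lengths, were 27919645 and 29351163 reads, and each polyamine gene then had 71 to 12075 reads in a library. All 8 hepatocyte marker genes examined, among them Alb and Hnf4a, had 127 FPKM or more in each library. Expressed genes as a whole were shifted upwards in the LTsc1KO-labelled library, with a median log2 ratio of 0.70 over 12395 genes on the scale of log2(FPKM + 1). Summed FPKM went the other way, at 815384 in the WT-labelled library and 720121 in the LTsc1KO-labelled library. FPKM are relative to a library's total, so the shift by itself shows no general rise in RNA. Ratios are therefore also given after the whole LTsc1KO library was divided by 1.64, which makes 0 the median log2 ratio of genes at 1 FPKM or more in the 2 libraries ("median ratio set to 0" below).

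Of the 10 genes, 7 had a higher FPKM in the LTsc1KO-labelled library and 3 a lower one (Paox, Oaz1 and Oaz2). Most expressed genes were also higher, with a 25th percentile of the log2 ratio of 0.11, so 7 of 10 is not above the background. Amd1, Sat1 and Smox were at least 2-fold higher on the scale of log2(FPKM + 1) and Paox was at least 2-fold lower. Across all expressed genes 35.6% were at least 2-fold higher and 6.15% at least 2-fold lower, so 3 of 10 is a share near the background. The median log2 ratio of the 10 genes was 0.88, beside 0.70 for all expressed genes. With the median ratio set to 0, Amd1, Sat1 and Smox remained at least 2-fold higher (15.6% of all genes) and Oaz1, just past the limit, joined Paox as at least 2-fold lower (12.7% of all genes); the median of the 10 was then 0.18. The same 7 genes were higher and the same 3 lower under that scaling, where the median log2 ratio of all expressed genes was 0.07. With the upper quartiles of the libraries made equal instead, Amd1 fell short of 2-fold with a log2 ratio of 0.95, and Srm was at -0.05.

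Markers of hepatocytes, of other cells and of division differed between the same libraries. All 16 skeletal muscle markers were lower in the LTsc1KO-labelled library, where they summed to an FPKM of 3.08 and 7 of them (Myh1, Myh2, Myh4, Tnnt3, Myl1, Mb and Pvalb) were at 0; in the WT-labelled library they summed to 4032. All 8 proliferation genes were higher, summing to 29.8 and 515. Of the 8 hepatocyte markers 6 were lower in the LTsc1KO-labelled library, 3 of them at least 2-fold (5 with the median ratio set to 0), and they summed to 37359 and 24469.5, with Alb at 14351 and 5534. Of all expressed genes, 6.15% were at least 2-fold lower (12.7% with the median ratio set to 0), and most were higher as deposited. For cholangiocytes all 7 markers used were higher, and they summed to 41.9 and 627, mostly Spp1. Macrophage markers were higher in 4 of 8 cases (32.6 and 80.2, of which Cd68 made up 1.32 and 52.3), neutrophil markers lower in 8 of 8 (145 and 68.6), erythroid markers lower in 5 of 7 (783 and 73.7), and endothelial and stellate markers lower in 5 of 8 (42.8 and 40.8). The WT-labelled library thus held skeletal muscle transcripts that the other nearly lacked, such as Acta1 with 35026 reads beside 5. For the other cell types, a smaller share of cells and less RNA per cell cannot be told apart in bulk tissue. What part muscle and these cells have in the ratios of the polyamine genes was not tested.

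**Figure D1:**
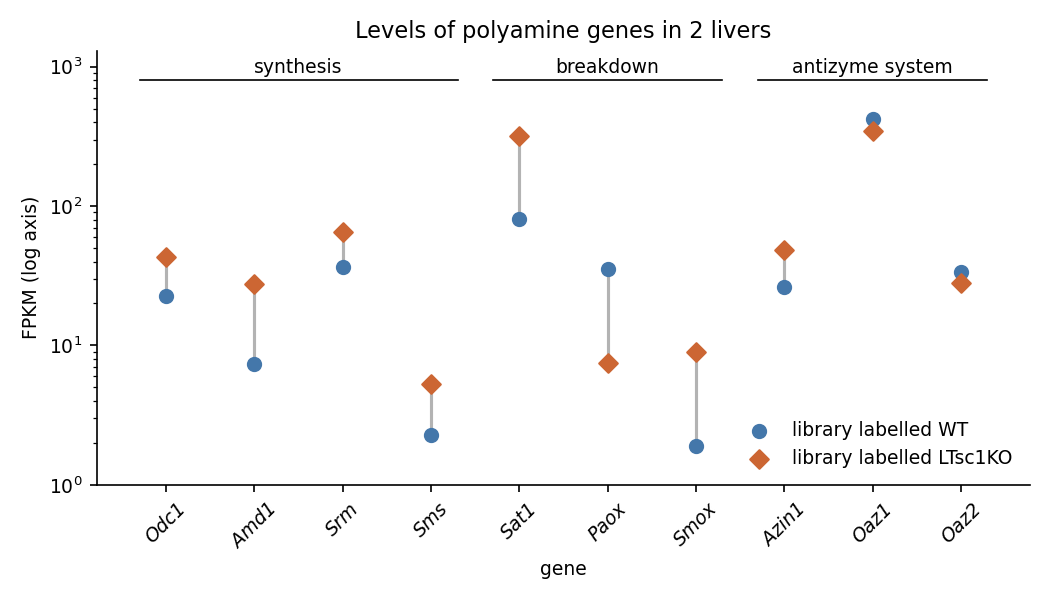
FPKM (log axis) of the 10 polyamine genes, with 1 circle for the WT-labelled library and 1 diamond for the LTsc1KO-labelled library, joined by a line. Paox runs downwards from 35.2 to 7.42, Oaz1 and Oaz2 hardly separate, and the other 7 genes are higher in the LTsc1KO-labelled library.

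Synthesis enzymes had higher values in the LTsc1KO-labelled library on the deposited scale, with Amd1 furthest apart. Odc1, ornithine decarboxylase, which makes putrescine (ENSMUSG00000011179; GRCm38 chromosome 12, 17544794 to 17551505, plus strand), had 22.6 FPKM in the WT-labelled library and 42.7 in the LTsc1KO-labelled library. This gave a ratio of 1.89 (interval 1.71 to 2.10). It stood close to the middle of the transcriptome, since 59.5% of expressed genes had a lower log2 ratio and its ratio was 1.15 (1.04 to 1.28) with the median ratio set to 0.

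Amd1, S-adenosylmethionine decarboxylase, supplies the aminopropyl donor for both later steps (ENSMUSG00000075232; chromosome 10, 40287458 to 40302186, minus strand). Its FPKM was 7.31 in the WT-labelled library and 27.5 in the LTsc1KO-labelled library, a ratio of 3.77 (3.34 to 4.27). The ratio was 2.30 (2.03 to 2.60) with the median ratio set to 0. It exceeded that of Odc1, an order that no scaling of a whole library can change. Within a library Amd1 was at 0.324 of the Odc1 level in the WT-labelled library and at 0.645 of it in the other. This pair was not fixed in advance. Amd1 has a near-identical retrocopy, Amd2, which was at an FPKM of only 0.0559 and 0.0958 (5 and 9 reads); the treatment of reads that both genes could have given is not stated in the labels.

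Srm, spermidine synthase (ENSMUSG00000006442; chromosome 4, 148591503 to 148594993, plus strand), was the most abundant of the 4 synthesis transcripts per length in both libraries, at an FPKM of 36.7 and 64.9. The ratio was 1.77 (1.63 to 1.93) as deposited and 1.08 (0.992 to 1.17) with the median ratio set to 0, an interval that holds 1, and its direction turned with the upper quartiles made equal. Sms, spermine synthase (ENSMUSG00000071708; X chromosome, 157443855 to 157492287, minus strand), was the least abundant of them, at 2.28 and 5.27. Its ratio was 2.31 (1.86 to 2.89), or 1.41 (1.13 to 1.76) with the median ratio set to 0. Odc1, Srm and Sms thus lay between the 2-fold limits under both scalings on the scale of log2(FPKM + 1), with log2 ratios of 0.89, 0.81 and 0.94 as deposited and 0.20, 0.11 and 0.36 with the median ratio set to 0.

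Breakdown enzymes moved in opposite directions, and the widest contrast of the 10 genes was among them. Sat1, spermidine/spermine N1-acetyltransferase, adds the acetyl group that opens the back-conversion route (ENSMUSG00000025283; X chromosome, 155213132 to 155216449, minus strand). Its FPKM was 80.6 in the WT-labelled library and 320 in the LTsc1KO-labelled library. Thus Sat1 was 3.96-fold higher (3.79 to 4.15), and 2.41-fold higher (2.31 to 2.53) with the median ratio set to 0.

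Paox, the peroxisomal oxidase that acts on acetylated polyamines (ENSMUSG00000025464; chromosome 7, 140115799 to 140137224, plus strand), went the other way. Its FPKM was 35.2 in the WT-labelled library and 7.42 in the LTsc1KO-labelled library. It was 4.74-fold lower (4.19 to 5.39), and 7.79-fold lower with the median ratio set to 0; 2.07% of expressed genes had a lower log2 ratio. Transcripts of Paox overlap those of Echs1 on the opposite strand over 143 bases, and Echs1, an enzyme of fatty acid oxidation, was at 96.3 and 70.0. The strand of the reads is not given, so part of either value could belong to the other gene.

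Smox, spermine oxidase, turns spermine directly into spermidine without acetylation (ENSMUSG00000027333; chromosome 2, 131491496 to 131525922, plus strand). It was the least abundant of the 10 genes in the WT-labelled library, with 1.89 FPKM (71 reads), and was at 9.04 (357 reads) in the other. Smox was 4.78-fold higher (3.70 to 6.26), the highest ratio of FPKM among the 10 genes, or 2.91-fold higher (2.25 to 3.81) with the median ratio set to 0. Its interval is the widest of the 10, and it overlaps those of Sat1 and Amd1.

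Ratios between genes within a library do not depend on how the libraries are scaled. Sat1 stood at 2.29 times the FPKM of Paox in the WT-labelled library and at 43.1 times in the LTsc1KO-labelled library, an 18.8-fold difference (16.5 to 21.5; a normal approximation on log reads, as for the other ratios of this kind). For Smox over Paox the values were 0.0537 and 1.22, a 22.7-fold difference (17.1 to 30.1). The 2 oxidases therefore changed places: Paox was the more abundant transcript in the WT-labelled library, and Smox in the LTsc1KO-labelled library, where their levels were close. These pairs were chosen after the values were seen.

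**Figure D2:**
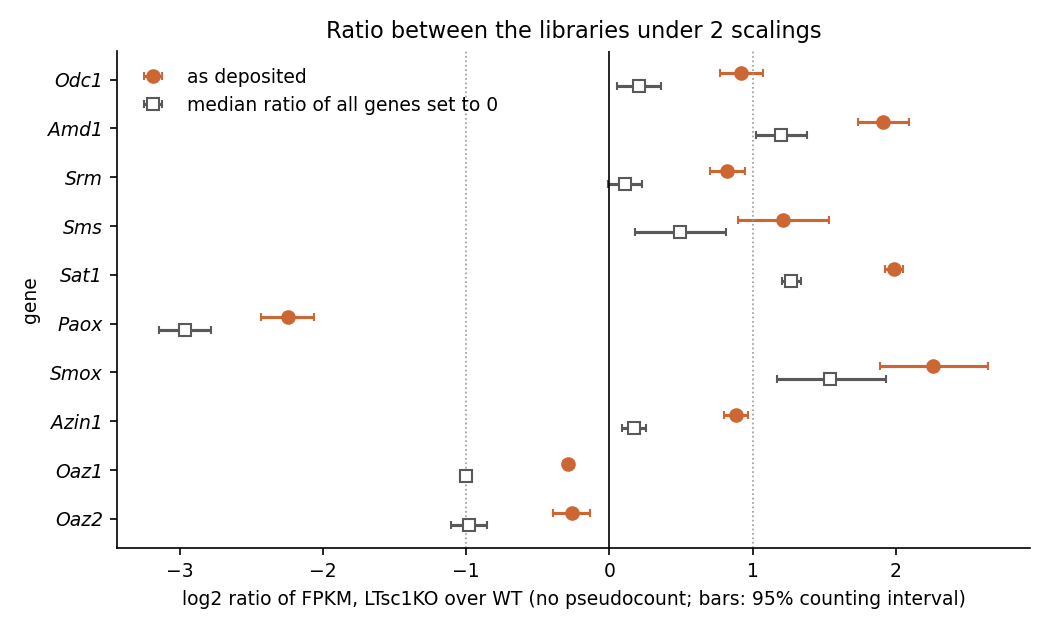
Log2 ratio of FPKM without a pseudocount, LTsc1KO over WT, for the 10 genes, with 95% counting intervals; filled circles are values as deposited and open squares values with the median ratio of all genes set to 0, and dotted lines mark 2-fold. Amd1, Sat1 and Smox stay above the upper line and Paox below the lower one under both scalings, while Odc1, Srm and Azin1 move close to 0.

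Both antizyme transcripts were slightly lower in the LTsc1KO-labelled library, by nearly the same ratio. Oaz1, the main antizyme (ENSMUSG00000035242; chromosome 10, 80826656 to 80829290, plus strand), was the most abundant of the 10 genes in both libraries, with 423 FPKM in the WT-labelled library and 346 in the LTsc1KO-labelled library, giving a ratio of 0.819 (0.797 to 0.841). Oaz2, a second antizyme (ENSMUSG00000040652; chromosome 9, 65668001 to 65690300, plus strand), was at 33.7 and 28.1, a ratio of 0.833 (0.762 to 0.910). Oaz1 was at 12.5 times the level of Oaz2 in one library and 12.3 times in the other, which differed by less than the counting interval (ratio 0.983, 0.897 to 1.08). The pair of Oaz1 and Oaz2 was likewise not fixed in advance. With the median ratio set to 0 the FPKM of Oaz1 was 2.01-fold lower and that of Oaz2 1.97-fold lower.

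Azin1, the antizyme inhibitor, resembles ornithine decarboxylase without its activity and draws antizyme away from it (ENSMUSG00000037458; chromosome 15, 38487427 to 38519266, minus strand). Its FPKM was 26.2 in the WT-labelled library and 48.4 in the LTsc1KO-labelled library, a ratio of 1.85 (1.74 to 1.96), or 1.12 (1.06 to 1.19) with the median ratio set to 0. Odc1 and Azin1 kept nearly the same proportion, with Odc1 at 0.861 and 0.882 of the Azin1 level (ratio 1.03, 0.910 to 1.15). Against the summed antizymes Odc1 was at 0.0494 in the WT-labelled library and 0.114 in the LTsc1KO-labelled library, 2.31-fold higher (2.08 to 2.57).

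In the order of levels per length, Oaz1, Sat1 and Srm were the 3 highest, in that order, in both libraries. Paox came 4th of the 10 in the WT-labelled library and 9th in the LTsc1KO-labelled library, the longest move in this order, while Odc1 and Azin1 each moved up by 2 places. Among their neighbours in the WT-labelled library, Srm (36.7), Paox (35.2) and Oaz2 (33.7) lay close together, and in the LTsc1KO-labelled library so did Oaz2 (28.1) and Amd1 (27.5). Oaz1 made up 63.2% of the summed FPKM of the 10 genes in the WT-labelled library and 38.5% in the other, and Sat1 12.0% and 35.5%. The 4 synthesis genes together took 10.3% and 15.6%.

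**Figure D3:**
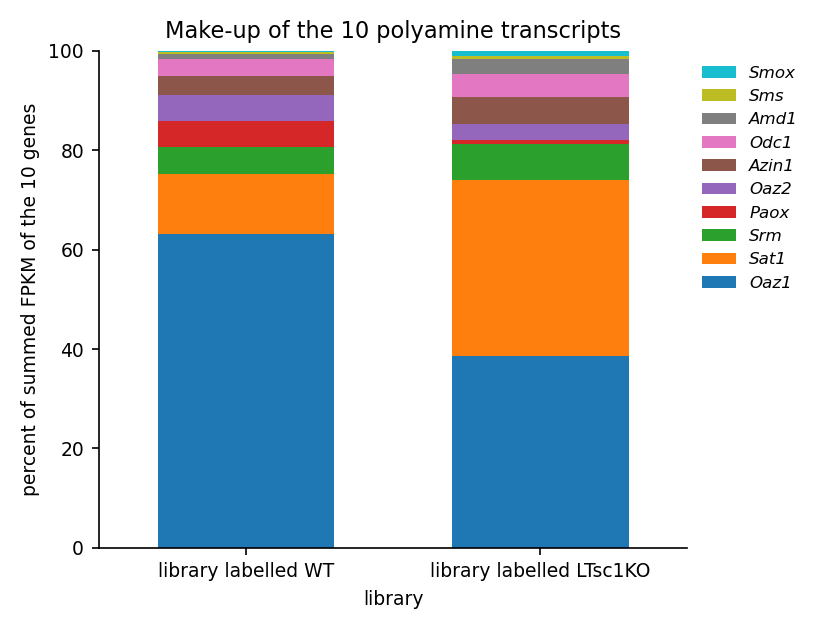
Percent of the summed FPKM of the 10 polyamine genes taken by each gene in the WT-labelled library and in the LTsc1KO-labelled library. The block of Oaz1 shrinks from 63.2% to 38.5% while that of Sat1 grows from 12.0% to 35.5%.

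**Figure D4:**
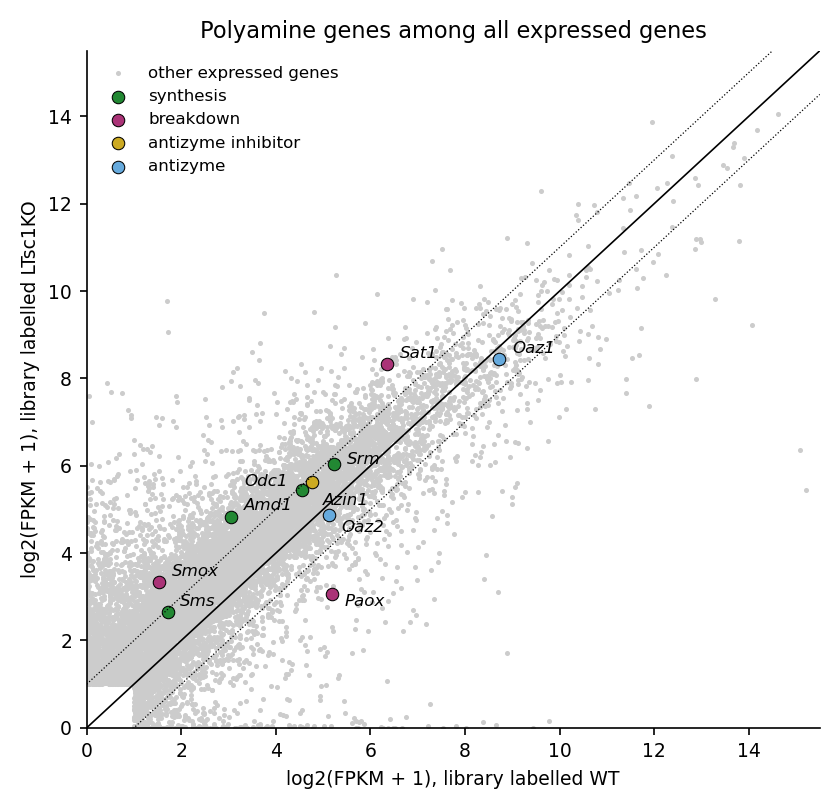
Log2(FPKM + 1) of 12395 expressed genes in the WT-labelled library (x axis) and the LTsc1KO-labelled library (y axis), with the 10 polyamine genes in colour by role; the solid line is equality and dotted lines are 2-fold. Sat1, Amd1 and Smox lie above the upper dotted line, Paox lies below the lower one, and most grey points lie above the line of equality.

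Promoter windows from the RefSeq table (GRCm38.p6; 250 bases before to 50 after a start) were matched for 8 of the 10 genes, in 10 windows; Srm and Azin1 were not matched. Motifs searched on both strands were CACGTG, the E-box that MYC binds, and TGACNNNGC, the core of the antioxidant response element that NRF2 binds; they do not overlap each other here. CACGTG was in 1 of the 10 windows (Sms), and in 7.15% of all 32851 windows. Sites outside the windows were not searched, so a gene without a match may still have the motif elsewhere. TGACNNNGC was in the windows of Smox and Oaz1, and in 12.4% of all windows. These windows are printed because Smox and Oaz1 share the motif and had unlike ratios, 4.78 and 0.819. Capitals mark the match, which begins 193 bases before the start in Smox (chr2:131491612-131491911, plus strand) and 13 before it in Oaz1 (chr10:80826406-80826705, plus strand).
Smox: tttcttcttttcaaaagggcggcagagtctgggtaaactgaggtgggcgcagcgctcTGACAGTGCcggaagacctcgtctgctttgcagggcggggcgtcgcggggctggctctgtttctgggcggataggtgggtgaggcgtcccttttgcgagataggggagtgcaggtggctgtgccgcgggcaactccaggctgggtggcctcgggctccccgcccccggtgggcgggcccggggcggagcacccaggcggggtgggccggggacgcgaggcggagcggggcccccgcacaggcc
Oaz1: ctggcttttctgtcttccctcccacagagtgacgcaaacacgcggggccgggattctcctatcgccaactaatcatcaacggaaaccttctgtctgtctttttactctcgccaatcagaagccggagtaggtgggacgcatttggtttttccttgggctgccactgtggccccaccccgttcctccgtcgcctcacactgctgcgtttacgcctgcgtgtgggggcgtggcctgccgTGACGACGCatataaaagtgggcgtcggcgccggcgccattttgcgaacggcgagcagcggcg
A match of letters is not a measured binding site.

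Among genes that make, use or carry precursors, the 3 most abundant in the WT-labelled library (Mat1a, Arg1 and Oat) stood lower in the other. Of 9 such genes 8 were expressed, of which 0 were at least 2-fold higher and 3 at least 2-fold lower, with a median log2 ratio of -0.65 (35.6% and 6.15% of all expressed genes, median 0.70). Oat, ornithine aminotransferase, had 508 FPKM in the WT-labelled library and 37.7 in the LTsc1KO-labelled library (13.5-fold lower, 12.9 to 14.0). Arg1, the arginase that makes ornithine, was at 1045 and 239 (4.37-fold lower, 4.23 to 4.50). Mat1a, which makes S-adenosylmethionine in the adult liver, was at 1655 and 589, whereas Mat2a, the form of most other tissues, was at 32.4 and 59.9. With the median ratio set to 0 the log2 ratio of Mat2a was 0.17, close to level, and 5 of the 8 genes were at least 2-fold lower (12.7% of all genes). The list mixes genes that make ornithine with genes that use it, and the supply of precursors was not measured.

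Genes that recycle methylthioadenosine, the by-product of both aminopropyl transfers, were divided: 2 of 5 passed 2-fold upwards and 0 downwards, around a median log2 ratio of 0.89; with 35.6% of all expressed genes at least 2-fold higher, 2 of 5 is near the background. Mtap, the phosphorylase that opens this salvage route, was at 6.08 and 21.7, 3.57-fold higher (3.13 to 4.08). Enoph1 was at 1.93 and 5.37 and Adi1 at 94.4 and 176, whereas Apip (28.8 and 28.6) and Mri1 (15.3 and 12.6) were near level. With the median ratio set to 0, Mtap alone of the 5 stayed at least 2-fold higher, just past the limit at a log2 ratio of 1.01. Of all genes, 15.6% were at least 2-fold higher under that scaling. Apip and Mri1 then had log2 ratios of -0.69 and -0.90.

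Spermidine is also used to make hypusine, a modified lysine found in the translation factor eIF5A. None of the 3 expressed genes of this step was 2-fold apart, beside 35.6% of all expressed genes at least 2-fold higher and 6.15% lower. With 3 genes such a count says little. Eif5a was at 290.2 and 402, Dhps, which transfers the spermidine part, at 9.26 and 10.3, and Dohh, which hydroxylates it, at 35.1 and 63.9. Under the scaling to a median ratio of 0, Eif5a and Dhps had negative log2 ratios (-0.25 and -0.50) and Dohh was close to level (0.15). Eif5a2, a second form, stayed below 1 FPKM in both libraries. Among genes that break down putrescine or acetylated polyamines, 1 of 4 was at least 2-fold higher, beside 35.6% of all expressed genes. This was Aoc1, diamine oxidase, at 0.0318 (2 reads) and 1.21 (80 reads), a ratio of 38.0 with an interval of 10.2 to 320; it was not at least 2-fold higher with the median ratio set to 0, on the scale of log2(FPKM + 1). Abat was at 74.1 and 132, Hdac10 at 6.30 and 8.72, and Aldh9a1 at 52.2 and 60.0.

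Genes linked to polyamine transport went both ways, with 3 of 9 expressed members at least 2-fold higher and 2 at least 2-fold lower (median 0.62). The higher share is near that of all expressed genes (35.6% higher, 6.15% lower). The counts became 3 and 3 with the median ratio set to 0, where the shares of all genes were 15.6% and 12.7%. Slc3a2, the heavy chain of amino acid exchangers that has also been tied to polyamine export, was at 12.4 and 80.0 (6.48-fold higher, 6.04 to 6.94). Gpc1, a heparan sulphate proteoglycan, was at 12.9 and 74.2, and Slc18b1, a vesicular polyamine transporter, at 1.47 and 8.98. Slc22a3, an organic cation transporter, was at 2.86 and 0.341 (8.41-fold lower, 5.90 to 12.3).

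**Figure D5:**
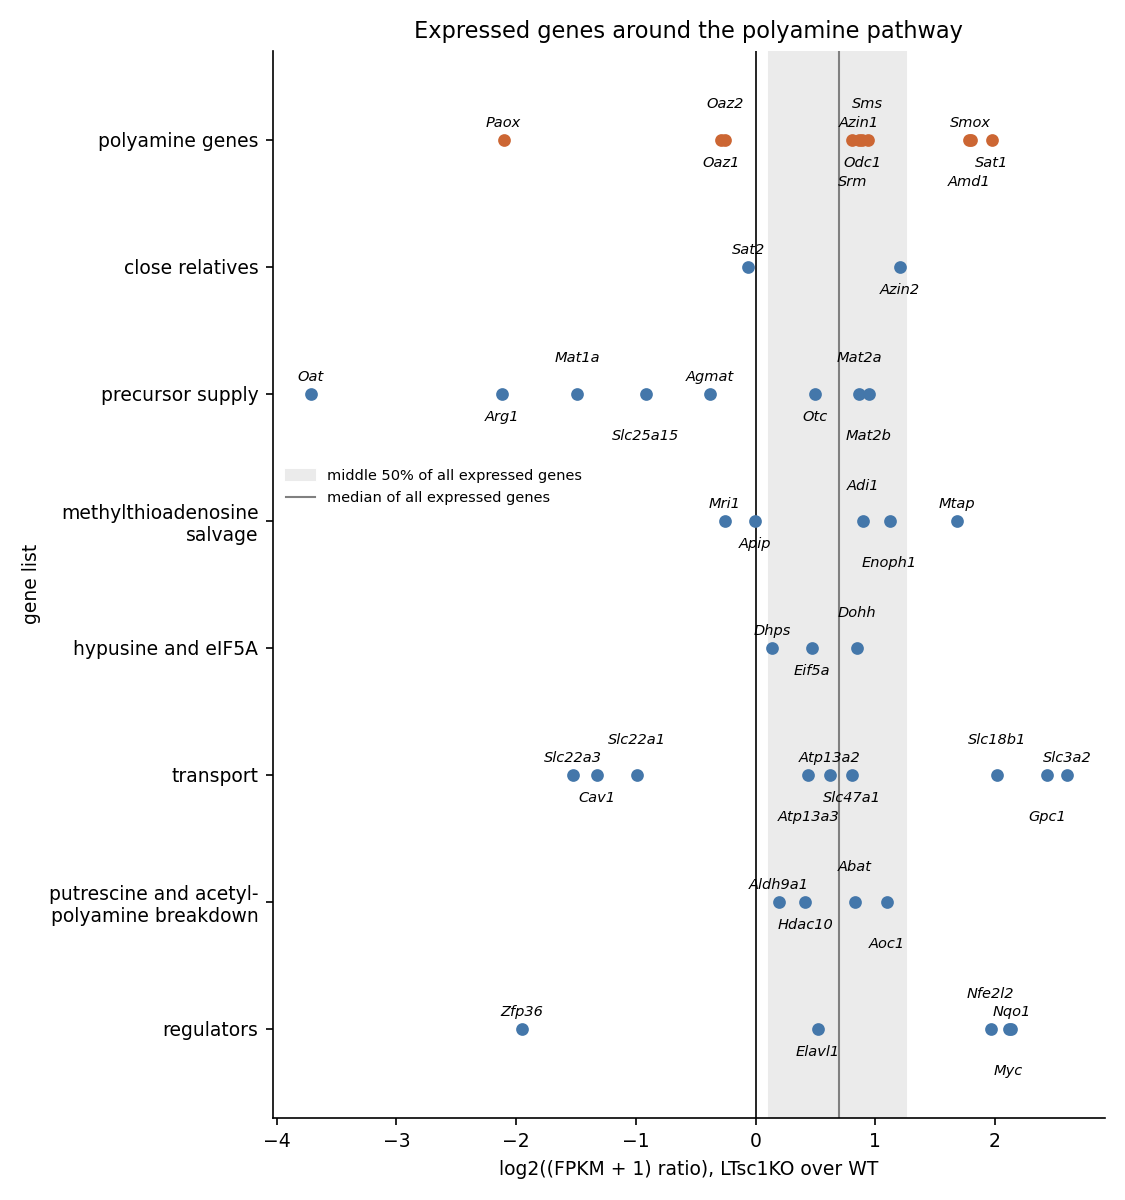
Log2 ratio on the scale of FPKM + 1, LTsc1KO over WT, of the expressed genes of the polyamine list (orange) and of 7 lists around it (blue); the grey band holds the middle 50% of all expressed genes and the grey line is their median of 0.70. Odc1, Srm, Sms and Azin1 lie inside the band, Amd1, Smox and Sat1 to its right, and Oat is the lowest gene shown.

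A further list held genes known to act on polyamine enzymes or on many transcripts. Myc, a transcription factor with Odc1 among its known targets, was at 3.78 and 19.7 (5.20-fold higher, 4.45 to 6.11). Nfe2l2, which encodes NRF2, was at 17.7 and 72.1, and its target Nqo1, whose product can shield ornithine decarboxylase from degradation, at 4.70 and 24.1. Zfp36, an RNA-binding protein that destabilises many transcripts, was at 76.6 and 19.0, 4.03-fold lower (3.81 to 4.27), and Elavl1, which stabilises many, at 5.78 and 8.71. Altogether 3 of 5 expressed genes were at least 2-fold higher and 1 lower, under both scalings (all expressed genes: 35.6% and 6.15% as deposited, 15.6% and 12.7% with the median ratio set to 0), and whether any of them bears on the polyamine genes was not tested. Of the 2 expressed close relatives, Azin2, a second antizyme inhibitor, was at 1.06 and 3.77, at least 2-fold higher as deposited but not with the median ratio set to 0. Sat2 was at 11.3 and 10.8 (ratio 0.954, interval 0.809 to 1.13), while Oaz3 (0.526 and 0.633) and Amd2 were under 1 FPKM and Satl1 was listed at 0 in both.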

How the data were processed

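RNA sequencing values of 2 mouse livers, 1 library per genotype, were used as the FPKM that the authors deposited. CASAVA 1.7, Bowtie 0.12.2 and mm8 appear in the submitters' processing notes without a role; counter, annotation and strand are not stated there. Of 35275 gene IDs, 34490 (97.8%) matched a symbol of GENCODE M21, and values of symbols with several IDs were summed.

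Reads were recovered because FPKM from whole reads are multiples of 1 read's worth. Library totals were inferred in this way too, and 52.0% of genes came out whole in both libraries. All 10 polyamine genes came out whole in both libraries, 5 at the annotated mean transcript length and 5 at the nearest other length. Multiples of that length also fit, so reads and intervals rest on this choice (Odc1 used 849 bases, where 1698 would double its reads). Positions and lengths are from that annotation, on GRCm38, not the mm8 of the notes.

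Ratios were log2((FPKM + 1)/(FPKM + 1)), LTsc1KO over WT, with expressed meaning an FPKM of at least 1 in either library and a log2 limit of 1. Folds with intervals use no pseudocount. Near-identical transcripts (at least 95% over 100 bases) were sought with BLAST+ 2.17.0: 31 pseudogenes, of which 16 were in the tables with a summed FPKM of 2.40 and 1.80. The 10 genes, the lists and the rule for named genes were chosen with earlier results of these data known. From lists of over 6 genes that rule took the 3 expressed genes with the largest absolute log2 ratio and the largest opposite one of at least 2-fold, and every expressed gene of shorter lists; Mat2a, the marker genes, Echs1 and Tsc1 were named besides. Alternatives tried: a pseudocount of 0.1 or 5, a minimum FPKM of 5 or none, 4 other scalings, a 4-fold limit. One cell type marker of the planned lists is not reported here. Scripts were tested on simulated data. Software was scipy 1.17.1, pandas 2.3.3 and numpy 2.4.6 in Python 3.11.15, with matplotlib 3.10.9 for figures.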

Additional observations from a re-analysis of the deposited data

How the results depend on the processing

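The direction of 9 of the 10 polyamine genes was the same under all 4 other scalings, whereas a pseudocount cannot change it. Srm was the exception, at a log2 ratio of -0.05 with the upper quartile made equal. Under that scaling 3 genes were at least 2-fold lower (Paox, Oaz1, Oaz2), as were 15.1% of all expressed genes. Amd1 at 0.95 was no longer among the higher genes, which left Sat1 and Smox, beside 12.9% of all expressed genes. The median of the 10 was then 0.025. With the median ratio set to 0, 2 genes were at least 2-fold lower, as were 12.7% of all expressed genes, and the median was 0.18. With equal totals 6 genes (Odc1, Amd1, Sms, Sat1, Smox and Azin1) were at least 2-fold higher, as were 42.4% of all expressed genes, and the median was 1.05. At a 4-fold limit 0 genes were higher on the scale of log2(FPKM + 1) and Paox was lower. Of all expressed genes, 8.86% were higher and 2.28% lower at that limit. Counts were within 1.5 times of those reported under the other pseudocounts and equal totals without the 10 most abundant genes. The other filters could not change the counts, because all 10 genes had at least 5 FPKM in a library. No paired analysis was possible because each genotype has 1 library. For the same reason no library could be left out. Depth limits Smox most among the 10, with 71 reads in the library labelled WT.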

Other observations

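Genes with values closest to those of the 2 polyamine genes at the ends of the log2 ratio were found as the smallest distance in log2(FPKM + 1) over the 2 libraries, which gives likeness in level only. Closest to Sat1 were Tm4sf4, a tetraspanin-like membrane protein (81.1 in the library labelled WT and 323 in the library labelled LTsc1KO), Gabarapl1, an autophagy protein (80.3 and 308), and St13, a co-chaperone (88.4 and 334). Closest to Paox were Slc22a30 (34.3 and 7.37), Gm20319 (35.9 and 8.55) and Rdh16, a retinol dehydrogenase (32.3 and 8.60). With 2 libraries many genes can share such a pair of values.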
